A study of Mus musculus with 10 samples.

Results

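C-type lectin receptors are surface proteins of myeloid cells that recognise sugars and lipids of microbes and of damaged cells. Described here are 10 of their genes in mouse macrophages, Clec4a1, Clec4a2, Clec4a3, Clec4d, Clec4e, Clec4n, Clec5a, Clec7a, Clec10a and Clec12a, taken by gene symbol from a table of 56980 genes. All 10 were found once in the table, and all 10 passed the filter on low counts. Bulk RNA-seq covered 5 libraries of wild-type macrophages (WT) and 5 libraries labelled JAMLMKO in the titles and as a JAML knockdown in the genotype tag (KO); Jaml encodes an adhesion molecule of leukocytes. Both genotypes had received the same treatment, 8 h of lipopolysaccharide (LPS, 100 ng/ml) followed by 30 min of ATP (5 mM), so all levels are those of stimulated cells. The labels used here give no strain, age, sex, macrophage source or Cre line, and do not say whether each library is a separate animal, so the p-values rest on a spread that may be partly technical. The 5 columns headed SI in the table match no label. They were assigned to KO by elimination, WT being the only other genotype, and every direction below rests on that.

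As background, these receptors fall into activating and inhibitory kinds. Clec4e (Mincle), Clec4d (MCL) and Clec4n (Dectin-2) pair with the adaptor FcRγ, encoded by Fcer1g, and Clec5a (MDL-1) pairs with DAP12, encoded by Tyrobp, while Clec7a (Dectin-1, the receptor of fungal beta-glucans) carries its own signalling motif. All of them reach the kinase SYK, which works through CARD9, BCL10 and MALT1 to switch on inflammatory genes. Clec4a2 (DCIR) and Clec12a (MICL) carry inhibitory motifs that recruit phosphatases such as SHP-1, encoded by Ptpn6, and Clec10a (MGL1) binds galactose-type sugars. Clec4a1 and Clec4a3 are relatives of Clec4a2.

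Libraries held 19319512 to 22766319 counts. Jaml itself was counted only in WT 1 and KO 4, with 2 reads each, below the floor of 3 counts used here (0.132 to 0.155 counts scaled to library size, or CPM, for counting error only), so it could not check the genotype labels. The first 2 principal components held 39.1% and 17.7% of the variance. The genotypes separated on the first, and KO 1 and KO 3 stood apart from the other KO libraries on both. On the first, KO 1 (12.6) and KO 3 (5.8) lay nearer to WT (-29.3 to -20.9) than the other KO libraries did (29.1 to 40.8). The 10 macrophage genes of a marker list were abundant, at 24378 to 25939 summed CPM in WT and 23391 to 25405 in KO. The 9 stromal and mesothelial markers of another list summed to 573 to 636 CPM in WT and 596 to 767 in KO, led by Col1a1 at 245 and 318 CPM. Within that list the mesothelial markers Msln and Krt19 divided the KO libraries as both components did. Msln was at 8.99 CPM in KO 1 and 11.4 in KO 3, against 1.08, 0.442 and 0.302 in KO 2, KO 4 and KO 5, and at 5.03 to 9.74 in WT. Krt19 was at 2.30 and 3.18 CPM in KO 1 and KO 3, against 0.259, 0.196 and 0.202, and at 1.39 to 3.32 in WT. Upk3b, also a mesothelial marker of the list, did not divide them. It was at 0.184 and 0.179 CPM in KO 1 and KO 3, against 0.345, 0.0982 and 0.252. All KO libraries were below WT, at 1.18 to 1.72 CPM (log2 fold change -2.69 ± 0.26). Without KO 1 and KO 3 the receptors called were again 3 higher and 3 lower.

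Promoters are shown because members of the same gene family moved in opposite directions in the comparison below: Clec5a and Clec7a were higher in KO, Clec4a1 and Clec12a were lower, and Clec4e was the most abundant member. Each line gives the 250 bases before the gene's start, 5′ to 3′ on the gene's strand, from RefSeq on GRCm38.p6. Capitals mark matches to any of 7 motifs: PU.1 (GAGGAAGT), C/EBP (TTGCNNAA), AP-1 (TGANTCA), the interferon-stimulated response element (GAAA and GAAA, 2 bases apart), kappaB (GGG and TTTCC, 2 bases apart), the CATGTG box (CATGTG) and the TATA box (TATAAA), each searched on both strands.
Clec5a, chr6:40585806-40586055, minus strand: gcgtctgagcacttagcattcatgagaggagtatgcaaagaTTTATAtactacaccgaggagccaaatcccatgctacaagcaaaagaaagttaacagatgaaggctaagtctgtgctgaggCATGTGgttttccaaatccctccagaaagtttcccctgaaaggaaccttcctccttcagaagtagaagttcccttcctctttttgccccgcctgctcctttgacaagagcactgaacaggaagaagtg
Clec7a, chr6:129472780-129473029, minus strand: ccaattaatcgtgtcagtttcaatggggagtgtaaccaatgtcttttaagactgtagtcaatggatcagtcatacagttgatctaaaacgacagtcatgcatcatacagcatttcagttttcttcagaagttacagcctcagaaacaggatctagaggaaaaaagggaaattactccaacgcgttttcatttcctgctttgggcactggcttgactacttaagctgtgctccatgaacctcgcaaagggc
Clec4a1, chr6:122921598-122921847, plus strand: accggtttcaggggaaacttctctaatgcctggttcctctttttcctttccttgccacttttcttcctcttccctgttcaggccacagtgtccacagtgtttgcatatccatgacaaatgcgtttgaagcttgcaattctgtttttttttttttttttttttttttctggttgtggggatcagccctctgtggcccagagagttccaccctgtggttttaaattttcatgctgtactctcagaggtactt
Clec12a, chr6:129349994-129350243, plus strand: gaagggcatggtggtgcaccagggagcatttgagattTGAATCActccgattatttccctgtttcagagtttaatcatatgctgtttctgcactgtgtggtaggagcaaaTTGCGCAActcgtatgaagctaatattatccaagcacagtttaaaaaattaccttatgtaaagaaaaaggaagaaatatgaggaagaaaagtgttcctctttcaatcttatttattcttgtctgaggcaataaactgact
Clec4e, chr6:123289872-123290121, minus strand: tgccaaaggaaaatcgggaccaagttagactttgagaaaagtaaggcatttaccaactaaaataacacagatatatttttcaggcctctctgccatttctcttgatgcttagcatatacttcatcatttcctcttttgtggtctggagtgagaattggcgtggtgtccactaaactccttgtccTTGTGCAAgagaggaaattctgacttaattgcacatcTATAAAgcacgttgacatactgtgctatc
In these letters Clec4e had a C/EBP match 66 to 59 bases before the start and a TATA box at 29 to 24 bases. For Clec4e, unlike the other genes shown, the bases just after this start were not found in its GENCODE M21 transcripts. Its distances hold for the RefSeq start only. Clec12a had a C/EBP match at 140 to 133 bases and an AP-1 match at 213 to 207 bases, both of which read the same motif on either strand. Clec5a had a CATGTG box at 128 to 123 bases and a TATA box on the opposite strand at 209 to 204 bases. Clec4a1 and Clec7a held none of the 7 motifs in this window. No matches overlapped one another. Over the 8 members in the promoter table, a C/EBP match was found in 2, an AP-1 match in 1, a CATGTG box in 4 and a TATA box in 3, and PU.1, kappaB and interferon-element matches in 0. Over all 32851 promoters of the table, the shares were 9.56% for C/EBP, 6.75% for AP-1, 12.3% for the CATGTG box, 12.4% for the TATA box, 2.44% for PU.1, 1.41% for kappaB and 2.98% for the interferon element. A match is a description of letters and no evidence that a factor binds there.

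Expression of the receptors spanned a wide range, and 3 of them made up most of it. Clec4e held 60.8% of all counts of the 10 genes, Clec4d 18.8% and Clec7a 12.1%. The 10 genes together summed to 3519 to 4868 CPM in WT and 3281 to 4261 in KO, and without Clec4d and Clec4e to 761 to 816 CPM in WT and 780 to 875 in KO. To compare genes, CPM values were divided by the kilobases of merged exon length in GENCODE M21. On that scale Clec4e stood at 530 ± 101 CPM per kb and Clec4d at 500 ± 47.8 in WT (mean ± SD, n = 5), and their library ranges overlapped. Clec7a followed at 165 ± 3.59 and Clec4a1 at 61.5 ± 3.62 CPM per kb, each apart from its neighbours in every WT library. Clec4a3 (26.4 ± 1.73) and Clec12a (23.7 ± 1.00) overlapped in WT, as did Clec5a (14.3 ± 0.641) and Clec4n (14.0 ± 1.68). Clec4a2 was low at 3.64 ± 0.433 CPM per kb, and Clec10a was the lowest at 0.248 ± 0.0914. In KO the order was the same except that Clec4n, at 18.3 ± 1.33 CPM per kb, came before Clec5a at 17.8 ± 0.854, and their ranges overlapped there too. Clec4a3 and Clec12a did not overlap in KO, at 21.9 to 23.8 and 19.6 to 20.1 CPM per kb.

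The order of the top 2 depended on the gene length used. In the deposited FPKM, Clec4d (321 in WT) stood above Clec4e (191). The length implied by those FPKM values was 13196 bases for Clec4e, longer than its whole locus of 8082 bases and than its merged exon length of 4965 bases. For Clec4d the implied length was 2393 bases and the merged exon length 1599. Differences between genotypes for one gene do not depend on this length.

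**Figure D1:**
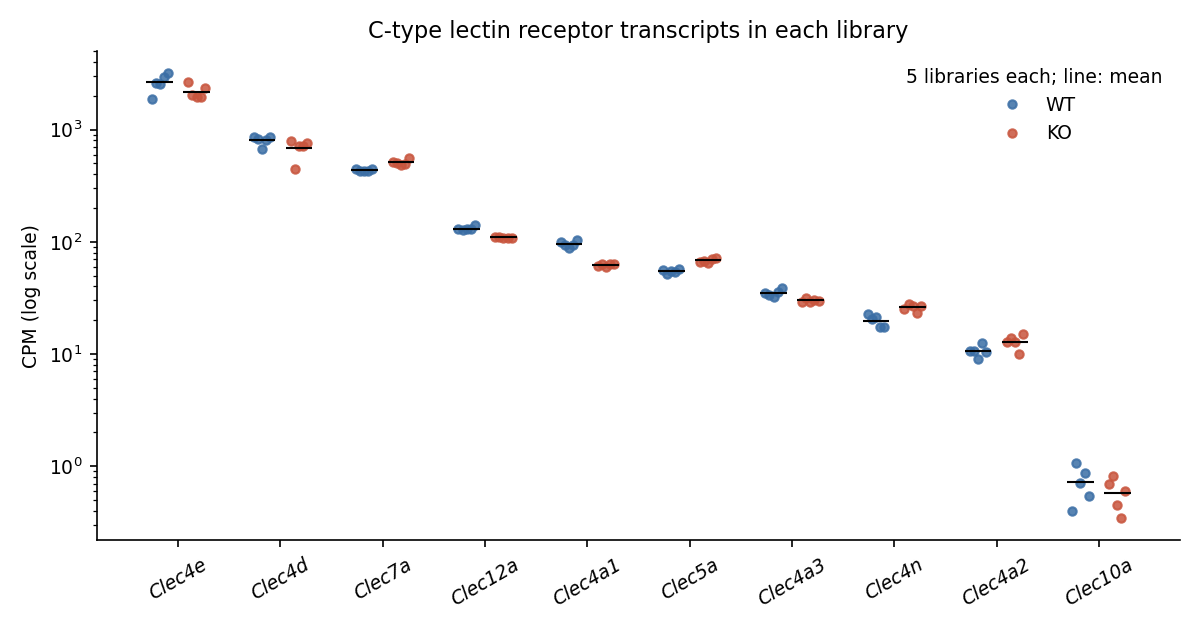
CPM of each of the 10 receptor transcripts in each library, on a log scale; points are libraries, black lines are means of 5. Clec4e lies between 1872 and 3197 CPM and Clec10a between 0.344 and 1.07 CPM, and for 6 genes, such as Clec4a1 and Clec7a, the WT and KO points do not overlap.

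The comparison of KO with WT asked how receptor transcripts differed between the genotypes after the same stimulation. Activating receptors Clec7a, Clec5a and Clec4n were higher in KO, the inhibitory receptor gene Clec12a and the DCIR relatives Clec4a1 and Clec4a3 were lower, and all of these differences were small, from 1.17-fold to 1.54-fold. The 2 most abundant receptors, Clec4e and Clec4d, are also activating and did not pass the test, with log2 estimates of -0.27 and -0.22. Clec4a2, which carries an inhibitory motif, did not pass either, at 0.28. The direction of the estimates therefore did not follow the activating or inhibitory kind in every member. Of the 10 members, 6 passed (edgeR quasi-likelihood test, adjusted p under 0.05 over 14436 genes), 3 higher and 3 lower, against 29.1% of all genes tested, 14.1% higher and 15.0% lower. The same 6 had KO values wholly above or below the WT values, as had 23.3% of all genes tested. None of the 10 changed by 2-fold or more, which 2.95% of genes did, and the median log2 fold change was -0.22 over the members and 0.01 over all genes. When CPM were scaled by library totals alone, without the TMM factors that allow for RNA composition, the median of all genes moved to 0.12 and the members split into 4 higher and 2 lower. In bulk RNA, fewer cells of a type and less RNA per cell cannot be told apart.

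Among the activating receptors, Clec7a stood at 443, 428, 425, 432 and 447 CPM in WT 1 to WT 5 and at 518, 501, 479, 497 and 558 CPM in KO 1 to KO 5. Every KO library lay above every WT library, and the WT values lay within a narrow band. From 435 ± 9.47 CPM in the WT libraries it rose to 511 ± 30.0 in the KO libraries (mean ± SD, 5 each), 1.17-fold, with a log2 fold change of 0.23 ± 0.04 (estimate ± SE, as below) and an edgeR adjusted p of 0.00135.

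Clec5a, which signals through DAP12, was measured at 56.4, 51.4, 55.0, 53.9 and 57.8 CPM in the WT libraries and at 66.2, 67.6, 64.3, 70.7 and 72.3 CPM in the KO libraries. Again no KO value fell within the WT range. The rise was 1.24-fold, or 0.31 ± 0.05 on the log2 scale (edgeR adjusted p = 0.000315).

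Clec4n, the Dectin-2 receptor of fungal mannans, showed the largest rise. Its values were 22.6, 20.5, 21.5, 17.3 and 17.5 CPM in WT and 25.3, 27.9, 26.8, 23.1 and 27.0 CPM in KO. KO 4 was the lowest KO library and lay close to WT 1, the highest WT library, without reaching it. The log2 fold change was 0.39 ± 0.08, a 1.31-fold rise (edgeR adjusted p = 0.00464).

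Clec4e, the Mincle receptor of mycobacterial cord factor, reached 1872, 2600, 2545, 2948 and 3197 CPM in WT and 2648, 2016, 1954, 1950 and 2330 CPM in KO. WT 1 was the lowest of all 10 libraries and KO 1 the highest of its group, above 3 WT libraries, and the groups overlapped. The log2 fold change was -0.27 ± 0.13, with a 95% interval from -0.56 to 0.02 (edgeR adjusted p = 0.155). Without WT 1 it was -0.36 and passed (adjusted p = 0.0258); over all alternatives the adjusted p ranged from 0.0258 to 0.398.

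Clec4d, whose protein associates with Mincle, was at 851, 820, 669, 806 and 855 CPM in WT and 790, 448, 717, 718 and 757 CPM in KO. KO 2 lay far below the other 4 KO libraries, and WT 3 below the other 4 WT libraries. The log2 fold change was -0.22 ± 0.13, with a 95% interval from -0.51 to 0.07 (edgeR adjusted p = 0.248). Without KO 2 the estimate was -0.10 ± 0.07 and did not pass either (adjusted p = 0.329).

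Clec4d and Clec4e lie side by side in the genome, and 2 libraries stood out in the ratio of their counts. Clec4e had 2.20 times the counts of Clec4d in WT 1 and 4.50 times in KO 2, with 2.72 to 3.81 times in the other 8 libraries. WT 1, lowest of the WT libraries for Clec4e, was among the highest for Clec4d, and KO 2, lowest for Clec4d, held the median KO value for Clec4e. In other libraries the order was alike: WT 5 was the highest WT library for both genes, and KO 1 and KO 5 were the highest KO libraries for both. Both genes varied more within a genotype than most of the 1908 genes with a mean of at least 100 CPM, a set not matched to their level. Over this set the median coefficient of variation was 4.24% in WT and 5.54% in KO. For Clec4e it was 19.0% and 14.0%, higher than for 96.1% and 90.3% of these genes. For Clec4d it was 9.55% and 19.9%, higher than for 89.2% and 95.4%. Clec7a, by contrast, varied by 2.18% in WT and 5.88% in KO, and Clec12a by 4.23% and 1.13%.

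**Figure D2:**
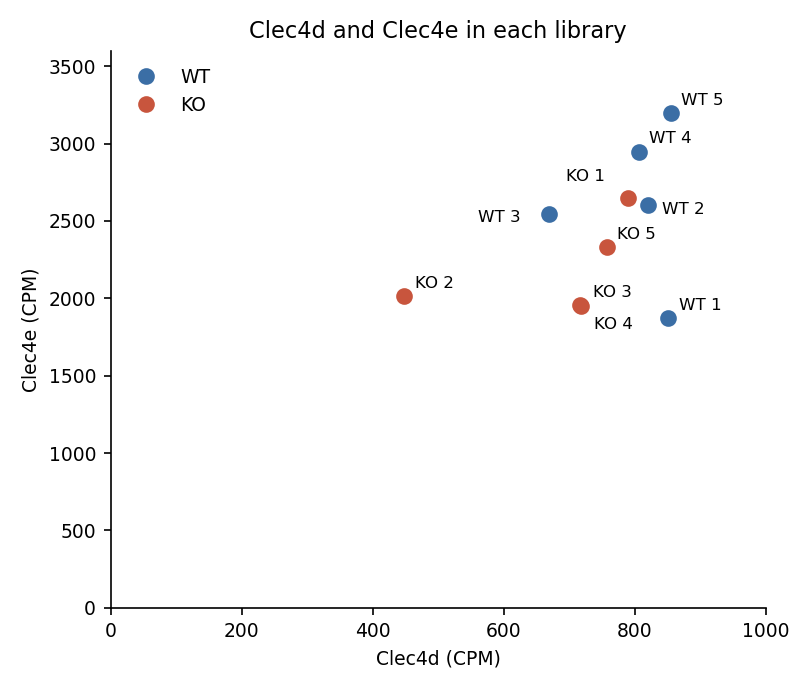
CPM of Clec4d (x axis) and Clec4e (y axis) in each of the 10 libraries, WT in blue and KO in red. KO 2 stands alone at 448 CPM of Clec4d, and WT 1 is the lowest in Clec4e at 1872 CPM.

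Of the receptors with inhibitory motifs, Clec12a, a receptor of uric acid crystals, stood at 129, 127, 129, 130 and 141 CPM in WT and 110, 111, 108, 109 and 109 CPM in KO. The KO libraries were nearly level with each other, and all lay below the lowest WT library. It fell by 0.26 ± 0.04 on the log2 scale, 1.20-fold (edgeR adjusted p = 0.000195).

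Clec4a2, which encodes the prototype DCIR, had values of 10.7, 10.6, 8.99, 12.5 and 10.4 CPM in WT and 12.8, 14.0, 12.8, 10.0 and 15.0 CPM in KO. KO 4 lay within the WT range and the other 4 KO libraries above it. The log2 fold change was 0.28 ± 0.11, with an interval from 0.03 to 0.53, and it did not pass after adjustment (edgeR adjusted p = 0.0876). It passed without KO 4 (0.36, adjusted p = 0.0172), without WT 4 (0.36, adjusted p = 0.039) and with library totals (0.39, adjusted p = 0.0179). Of the 50-base words in the transcripts of Clec4a2, 6.83% also occur in other genes, most often in its relatives Clec4a4 and Clec4b1, so some of its reads could have been lost or split.

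Clec4a1 had the largest difference of the 10. Its levels were 99.0, 94.4, 88.2, 94.6 and 103 CPM in WT and 60.3, 64.0, 60.1, 63.4 and 62.8 CPM in KO. A wide gap separated the genotypes, since the lowest WT library was at 88.2 and the highest KO library at 64.0 CPM. Clec4a1 fell 1.54-fold, by 0.63 ± 0.05 on the log2 scale (edgeR adjusted p = 1.63e-06). None of its 50-base transcript words occurs in another gene.

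Clec4a3 was at 34.9, 33.9, 32.4, 35.7 and 38.5 CPM in WT and 29.3, 31.6, 29.1, 30.3 and 29.8 CPM in KO. The groups did not overlap, though KO 2 and WT 3 were close. It fell 1.17-fold, by 0.23 ± 0.05 on the log2 scale (edgeR adjusted p = 0.00629). With library totals it lost its call, at -0.11 (adjusted p = 0.0935).

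Clec10a was near the limit of detection. It had 7 to 20 counts per library, or 0.395, 1.07, 0.707, 0.870 and 0.547 CPM in WT and 0.691, 0.820, 0.448, 0.344 and 0.605 CPM in KO. The groups overlapped widely. At this depth no difference was detectable (log2 fold change -0.29 ± 0.31, interval from -0.97 to 0.39, edgeR adjusted p = 0.538), and 9.02% of its 50-base transcript words are shared, mostly with its near copy Mgl2.

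**Figure D3:**
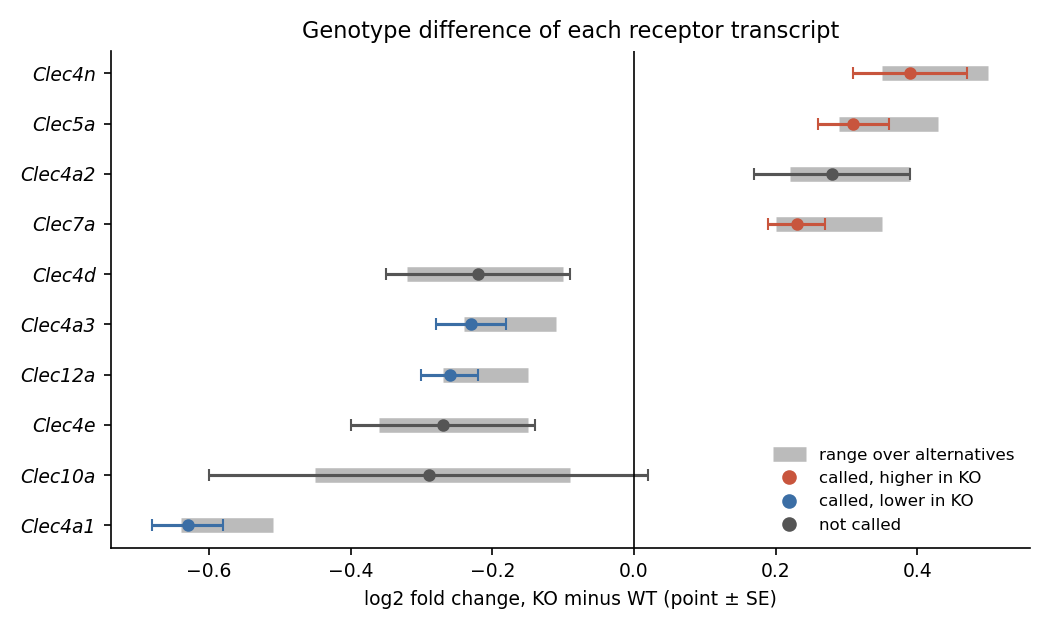
Log2 fold change of each receptor transcript, KO minus WT, as point ± SE, with a grey bar for the range over the alternative settings. Clec4n, Clec5a and Clec7a lie to the right of 0 and were called, Clec4a1, Clec12a and Clec4a3 lie to the left and were called, and the wide error of Clec10a crosses 0.

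Of the 10 genes, 9 lie on chromosome 6, where genes of the same stretch were called in opposite directions. Whether direction went with position was not tested. Coordinates are as the table lists them; the processing notes name mm10 and GRCm39 without a role, and none of the 10 positions equals that in a GRCm38 annotation. Clec4a1 (ENSMUSG00000049037, chromosome 6, 122898807 to 122911578) and Clec4e (ENSMUSG00000030142, chromosome 6, 123258748 to 123266829) bound a stretch of 368 kb with 13 genes, 9 of them protein-coding. The 6 genes tested in it were all members. Between these 2 lie Clec4a3 (ENSMUSG00000043832, 122929474 to 122946834), Clec4a2 (ENSMUSG00000030148, 123083387 to 123120958), Clec4n (ENSMUSG00000023349, 123206802 to 123223980) and Clec4d (ENSMUSG00000030144, 123239070 to 123252224). Clec5a (ENSMUSG00000029915) lies alone at 40551828 to 40562755 on the same chromosome, and Clec10a (ENSMUSG00000000318) on chromosome 11 at 70047023 to 70061660. In order along the chromosome, Clec4a1 (log2 estimate -0.63) and Clec4a3 (-0.23) were lower, Clec4a2 (0.28) was not called and Clec4n (0.39) was higher. Clec4d (-0.22) and Clec4e (-0.27) came last and were not called. Adjacent members thus often shared the sign of their estimate. The 3 other protein-coding genes there were hardly detected, with 21 counts for Clec4a4, 2 for Clec4b1 and 0 for Clec4b2 over the 10 libraries.

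**Figure D4:**
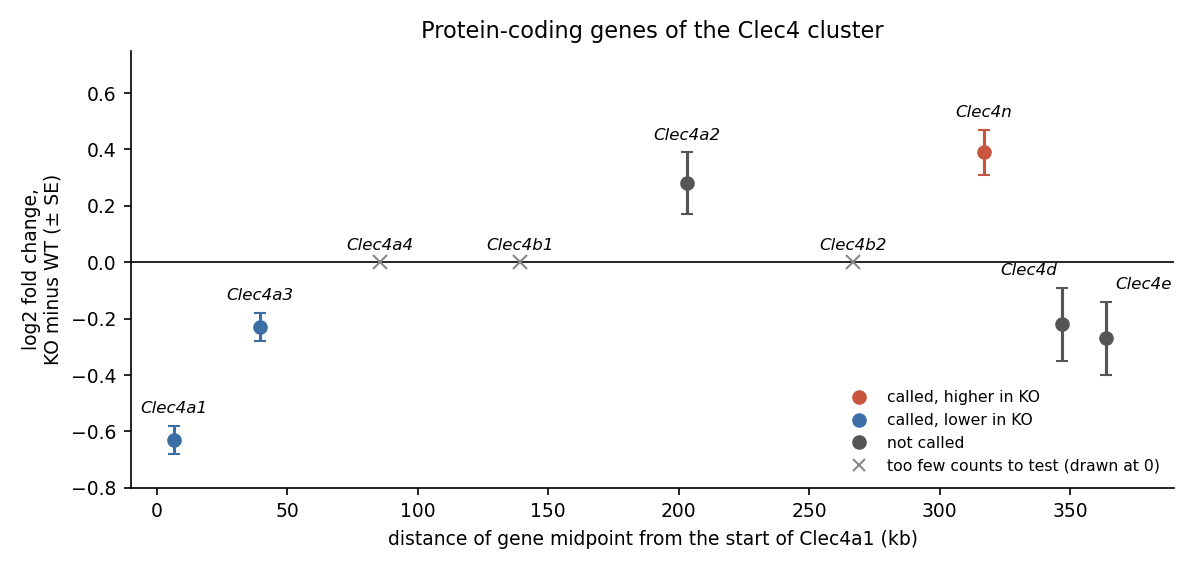
Log2 fold change ± SE, KO minus WT, of the 9 protein-coding genes of the Clec4 cluster against the distance of each gene's midpoint from the start of Clec4a1 in kb; crosses mark genes with too few counts to test. Clec4a1 and Clec4a3 at the left lie below 0, Clec4n above it, and its neighbours Clec4d and Clec4e below it with wider errors.

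A second stretch, from Clec12a (ENSMUSG00000053063, chromosome 6, 129319654 to 129342266) to Clec7a (ENSMUSG00000079293, chromosome 6, 129438554 to 129449742), spans 130 kb and also holds genes of opposite direction. Clec12a at one end was lower and Clec7a at the other higher. Between them only Clec1b, which encodes the podoplanin receptor CLEC-2, had enough counts to test. Clec1b went from 1.20 ± 0.491 to 2.02 ± 0.213 CPM (log2 fold change 0.75 ± 0.24, edgeR adjusted p = 0.0337), and WT 3 lay within the KO range. That call was lost when any 1 library other than WT 3, WT 4 or KO 3 was left out (adjusted p up to 0.0726), without KO 1 and KO 3 (0.0649) and without the low-count filter (0.0537). Clec9a, a dendritic cell receptor, was at 0.355 ± 0.115 CPM in WT and 0.633 ± 0.159 in KO and was too low to test.

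By likeness of pattern over the 10 libraries (the root mean square difference of centred log2 CPM, among 11903 genes with a mean of at least 1), the closest genes to Clec4a1 were Iqsec2, Ell2 and Lyn, with differences of 0.0388, 0.0401 and 0.0458. The last of these encodes a SRC-family kinase that acts on receptor tails. Closest to Clec4n were Lrrc20 (0.0716), Dgcr6 (0.0819) and 9330151L19Rik (0.0901). This ranking describes the libraries and was not tested.

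Genes of the signalling chain below the receptors were mostly lower in KO. Of 30 listed, 29 were tested: 16 fell, 1 rose and 12 did not pass, 58.6% called against 29.1% of all genes, with a median log2 fold change of -0.18 against 0.01. With library totals the count was 12 lower and 8 higher. The adaptors that the activating receptors need were abundant and did not pass. Fcer1g was at 927 ± 38.5 CPM in WT and 987 ± 44.2 in KO (log2 fold change 0.09 ± 0.04, edgeR adjusted p = 0.124), and passed without WT 3 (0.13, adjusted p = 0.0335) and with library totals (0.21, adjusted p = 0.000722). Tyrobp was at 371 ± 57.2 and 353 ± 79.1 CPM (-0.07 ± 0.14, adjusted p = 0.768).

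The kinase genes Lyn, Syk and Prkcd fell. Lyn went from 234 ± 10.4 to 151 ± 7.07 CPM, a fall of 0.63 ± 0.04 on the log2 scale (edgeR adjusted p = 1.12e-06). Syk, named here for its place in the pathway, was at 1191 ± 15.7 CPM in WT and 1020 ± 53.6 in KO and fell by 0.22 ± 0.04 (adjusted p = 0.000879). Prkcd, the kinase that activates CARD9, fell by 0.25 ± 0.03. The phosphatase gene Ptpn6, which acts for the inhibitory receptors, fell from 432 ± 16.0 to 285 ± 16.9 CPM, by 0.60 ± 0.05, and the adaptor gene Lcp2 by 0.54 ± 0.04.

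The 3 genes of the CARD9 complex differed from one another. Malt1, its protease, had the largest fall of the list, from 491 ± 19.4 to 292 ± 28.1 CPM, by 0.75 ± 0.06 on the log2 scale (edgeR adjusted p = 4.22e-06). Bcl10 fell by 0.18 ± 0.05 (adjusted p = 0.0167), a call lost when WT 1, WT 2 or WT 5 was left out (adjusted p up to 0.061), without the low-count filter (0.0757) and with library totals (0.404). Card9 was at 32.5 ± 1.78 CPM in WT and 36.2 ± 2.47 in KO and did not pass (0.16 ± 0.06, adjusted p = 0.0652); it passed without WT 2, WT 3 or KO 3, without KO 1 and KO 3, with a stricter filter and with library totals (adjusted p from 0.00175 to 0.0496). Plcg2, a phospholipase below SYK, had 0.06 ± 0.05 (adjusted p = 0.43) and passed with library totals (0.18, adjusted p = 0.00866). Nfatc2, a transcription factor gene named because it alone rose, went from 6.34 ± 1.21 to 8.78 ± 0.889 CPM (0.47 ± 0.12, adjusted p = 0.0138).

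**Figure D5:**
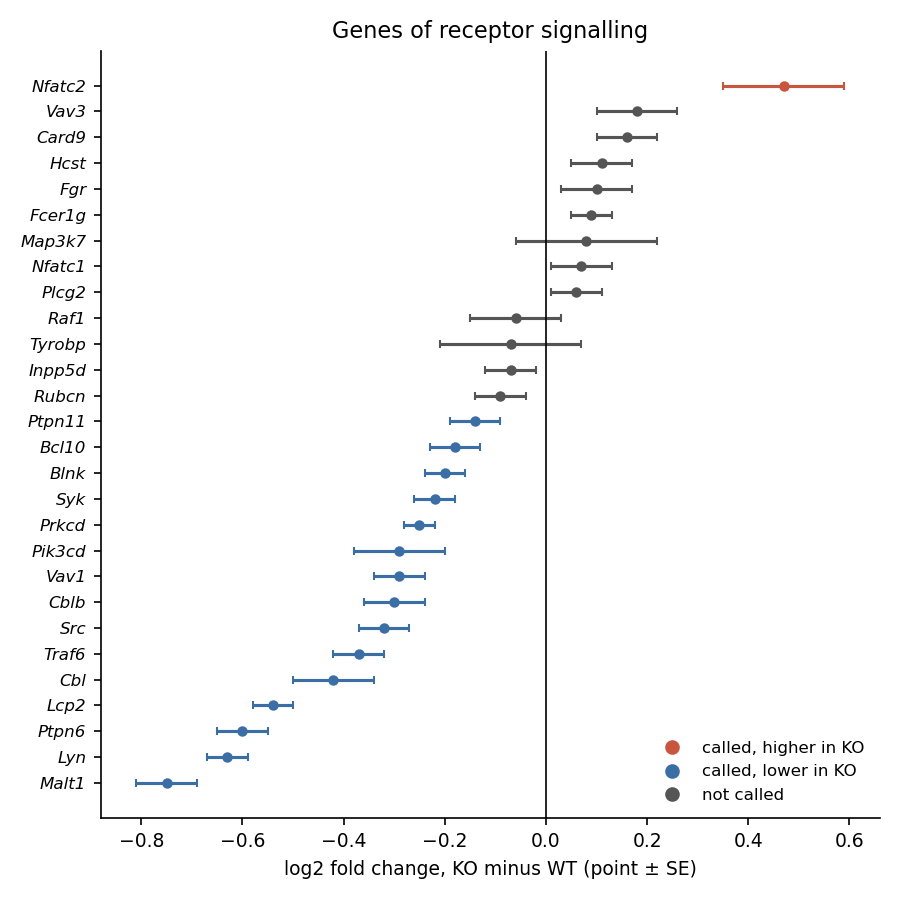
Log2 fold change ± SE, KO minus WT, of 28 of the 29 tested genes of receptor signalling, sorted by value. Malt1, Lyn, Ptpn6 and Lcp2 lie furthest to the left, the adaptors Fcer1g and Tyrobp lie near 0, and Nfatc2 is the one gene called higher.

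Transcripts that SYK and CARD9 are known to induce, and that LPS also induces through TLR4, were mostly lower. Of 16 listed, 14 were tested, 9 fell, 3 rose and 2 did not pass. That is 85.7% called against 29.1% of all genes tested, with a median log2 fold change of -0.86 against 0.01. With library totals the count was again 9 lower and 3 higher. Among those with the smallest p, the fall was 1.75 ± 0.07 for Tnf, 1.26 ± 0.07 for Ptgs2, 0.95 ± 0.06 for Ccl4, 1.09 ± 0.08 for Cxcl2, 0.83 ± 0.06 for Ccl3 and 1.45 ± 0.11 for Il12b on the log2 scale. The 3 that rose, named after their values were seen, were the early growth response genes Egr1 (0.76 ± 0.10) and Egr3 (1.57 ± 0.22, from 0.695 to 2.07 CPM) and the cytokine gene Il1b (0.26 ± 0.09, edgeR adjusted p = 0.0421). The call of Il1b was lost when any 1 library other than WT 5, KO 2 or KO 3 was left out (with an adjusted p of up to 0.0953), without the low-count filter (0.0572) and without KO 1 and KO 3 (0.0791). Egr2 and Nr4a1 did not pass, at 0.12 ± 0.31 and -0.05 ± 0.26.

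Of 11 myeloid transcription factor genes, 10 were tested and 3 were called, 30.0%, close to the 29.1% of all genes. Spi1, which encodes PU.1, fell by 0.33 ± 0.04 on the log2 scale from 278 ± 13.6 to 221 ± 9.33 CPM, and Mitf by 0.29 ± 0.04. Cebpa rose by 0.43 ± 0.06, from 167 ± 9.73 to 226 ± 19.0 CPM. Cebpb was at 251 ± 103 CPM in WT, where WT 3 had 431 CPM, and at 226 ± 71.1 in KO, and its log2 fold change was -0.15 ± 0.26. Irf8 and Runx1 had 0.00 ± 0.22 and -0.03 ± 0.06.

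Other genes with a C-type lectin domain were, like the 10 receptors, called in both directions. Of 70 listed, 19 had no count at all, among them Cd207 and all 7 listed Cd209 genes. Enough counts to test were found for 21, of which 6 rose, 7 fell and 8 did not pass. Of these, 61.9% were called against 29.1% of all genes tested, with a median log2 fold change of -0.16 against 0.01. At least 2-fold changes were seen in 4 of these and in none of the 10 receptors, a difference that was not tested. The activation marker gene Cd69 fell from 29.4 ± 3.77 to 10.3 ± 1.41 CPM (log2 fall of 1.51 ± 0.11) and the proteoglycan gene Vcan from 60.8 ± 5.68 to 29.8 ± 1.84 CPM (1.03 ± 0.07). Cd72, an inhibitory receptor gene, fell by 0.89 ± 0.09.

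Higher in KO were Cd302, an endocytic receptor gene, from 141 ± 2.36 to 206 ± 13.6 CPM (0.55 ± 0.05), and Olr1, which encodes the oxidised LDL receptor LOX-1, from 69.6 ± 4.58 to 99.9 ± 8.86 CPM (0.52 ± 0.07). Ly75, Cd93 and Dgcr2, the most abundant genes that were not called, had 0.02 ± 0.05, -0.04 ± 0.07 and -0.03 ± 0.16, and Ly75 passed with library totals (0.13, edgeR adjusted p = 0.0492).

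Some of the receptors are also made by neutrophils, monocytes, dendritic cells and mast cells, so the markers of these cells are given beside them. Of 11 neutrophil markers 3 were tested and 2 rose, S100a8 and Camp, and the list summed to 76.9 to 92.1 CPM in WT and 89.3 to 105 in KO, most of it Mmp8 (66.4 and 70.6 CPM). The defining genes Ly6g, S100a9, Cxcr2 and Mpo had at most 3 counts in every library. Of 10 dendritic cell markers 3 were tested and 1 fell, the chemokine gene Ccl22. Their sum was 5.62 to 7.65 CPM in WT and 3.18 to 5.39 in KO, led by Ccl22 itself with means of 3.47 and 1.41 CPM. Zbtb46 and Ccr7 were tested and did not pass, and Clec9a, not tested, had the higher mean in KO (0.355 and 0.633 CPM). Xcr1, Cd209a and Siglech had no count, and Flt3 had at most 3 in any library. Monocyte markers summed to 94.0 to 141 CPM in WT and 85.6 to 150 in KO, led by Ly6c2 with 79.7 and 102 CPM. Of 6 tested, 2 fell, among them Ace. None of the 7 was at 0 over all libraries together, but Ccr2 had only 0 to 9 counts per library and was not tested.

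Mast cell markers were lower in KO, 3 of 4 tested, with sums of 7.48 to 13.5 CPM in WT and 4.27 to 5.44 in KO. They were led by Tpsb2, and none was at 0 over all libraries together. Among stromal markers 3 rose and 2 fell of 8 tested. B cell markers summed to at most 1.23 CPM and T or NK cell markers to at most 0.388 CPM in any library, with Cd3e and Ncr1 at 0, led by Cd79b and Cd4. The part of these cells in the receptor differences was not tested.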

How the data were processed

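The measurements were RNA-seq gene counts of 10 libraries, grouped by genotype. The authors deposited a table that gives, per the file headers, a whole-number count for each gene and library and an FPKM value beside it. Each FPKM followed from its count, the library total and 1 fixed length per gene (relative spread of that length at most 4.5e-06 over 8180 well-counted genes); only the WT FPKM were used, and 5 columns of FPKM headed SI were left out. The tools CASAVA 1.8 and TopHat2 2.0.6 are named in the submitters' processing notes, and mm10 and GRCm39 as builds. Counter, annotation, strand setting and read length: not given in the sources used here, so reads of near copies and overlapping genes could have been split or lost.

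KO was compared with WT by edgeR 4.0.16 in R 4.3.3 (quasi-likelihood F test, TMM factors, filterByExpr with a minimum count of 10, no covariate). Benjamini-Hochberg adjustment ran over the 14436 genes kept, with 0.05 as the threshold for a call. Standard errors are the absolute estimate over the square root of F. CPM values use the TMM factors, which had means of 0.961 in WT and 1.04 in KO (p = 0.00794 by a two-sided exact permutation test, the lowest p that 5 against 5 can reach); library totals gave an exact p of 0.817. Where 145 symbols stood on several identifiers, the identifier with the highest count was kept. No pair of libraries was a duplicate: libraries of a genotype differed by a chi-square of 10.1 to 19.8 per gene.

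The members and gene lists were chosen with earlier results of these data known. Named are all members, up to 6 called genes of smallest p and the 3 most abundant uncalled genes of each pathway list, tested genes within each chromosome 6 stretch, the 3 genes nearest in pattern to the largest rise and fall, and the top marker of each other cell type. Genes outside this rule, chosen after their values were seen, are Syk, Card9, Bcl10, Nfatc2, Egr1, Egr3, Il1b and those that spell out a count or a marker list. The values of 2 genes that this rule takes are not reported here. Exon lengths and transcript words came from GENCODE M21. Alternatives were DESeq2 size factors, library totals, no low-count filter, a minimum of 50 counts in 5 libraries, a replicate block, each library left out, robust edgeR, DESeq2 1.42.0 and limma-voom (limma 3.58.1). Leaving out KO 1 and KO 3 together was chosen after seeing the data.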

Additional observations from a re-analysis of the deposited data

Results flagged for a closer look

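A library was flagged when it stood far from the other 4 of its genotype, with a gap to the nearest library above 0.71 of the whole range. This was found in 11 of 104 combinations of 52 named genes and 2 genotypes. For independent, normally distributed values the rule flags about 1 in 20. The combinations share the same libraries, so the 11 were not tested against that rate. For the receptors these were Clec4d in KO, where KO 2 had 448 CPM and the nearest library 717, Clec4d in WT, where WT 3 had 669 CPM and the nearest 806, and Clec12a in WT, where WT 5 had 141 CPM and the nearest 130. Among the other genes, KO 1 was lowest for Ly75 (324 CPM, nearest 375) and Cd93 (176, nearest 220) and highest for Ccl4 (60.5, nearest 51.2). Egr2 was lowest in WT 4 (7.78 CPM, nearest 23.2) and in KO 3 (11.5, nearest 23.3). Cebpb was highest in WT 3 (431 CPM, nearest 238), Nfatc2 in KO 5 (10.3, nearest 8.74) and Clec1b in KO 4 (2.41, nearest 1.94).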

How the results depend on the processing

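Over 19 alternatives, 184 of 189 values of the 10 receptors kept their direction and their side of the threshold, 1 lost its call, 4 gained one and none reversed. The number of receptors called was 6 or 7 under each alternative, and 6 to 7 with any 1 library left out. Of the transcription factor genes, 5 were called with library totals in place of 3, and 3 to 4 with 1 library left out. No other count of calls moved by over 1.5 times. With library totals, calls over all genes became 4231 higher and 1361 lower, against 2036 and 2164. The numbers of same-numbered libraries did not pair them: the correlations of their deviations ran from -0.114 to 0.184 over 5 pairs, and 2 of 5 WT libraries correlated best with their own number. With the replicate block, in which the number of a KO column was assumed to be its replicate number, 3780 genes and 6 receptors were called. Depth limits the genes of few counts: the filter of 50 counts in 5 libraries left Clec10a, Clec1b and Egr3 untested, with 11 CARD9 pathway outputs tested in place of 14, of which 2 were higher and 8 lower.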
